A study of Mus musculus with 12 samples.

Results

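Polyamine and arginine metabolism was followed through 10 genes of mouse dorsal root ganglia, the clusters of sensory neurons beside the spinal cord. Arg1, Arg2, Odc1, Amd1, Srm, Sms, Sat1, Azin1, Oaz1 and Oaz2 were taken by symbol from the 24033 genes of the deposited count table. All 10 symbols were present, and 9 passed the filter on low counts, among 15748 genes tested. Amd1 did not pass, and Arg1 passed only through its injured libraries. The mice carried Adv-Cre, a Cre recombinase driven from the Advillin gene of sensory neurons, and the Ribotag allele, with which cells that have Cre make an HA-tagged form of the ribosomal protein Rpl22. In each of the 4 groups there were 3 libraries of dissociated L4-L6 ganglia. IP Injury and IP Naïve were RNA pulled down with the tag from ganglia 3 days after a crush of the sciatic nerve and from naive ganglia, and Input Injury and Input Naïve were the RNA of such ganglia before the pull-down. All groups shared both alleles. The design text takes an injured and a naive ganglion from each animal, so a naive ganglion may be the one opposite the crush in the same mouse. It speaks of 4 mice, while 3 replicates a group were analysed here, and neither pooling of ganglia nor age is stated in the labels.

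Polyamines are small positively charged molecules that bind RNA and are needed for translation and growth. Arginase splits arginine into urea and ornithine, ornithine decarboxylase turns ornithine into putrescine, and spermidine and spermine synthase add aminopropyl groups donated by decarboxylated S-adenosylmethionine. Antizymes send ornithine decarboxylase to the proteasome, antizyme inhibitors bind the antizymes and free it, and an acetyltransferase marks spermidine and spermine for export or breakdown. In sensory neurons, work on mice and rats has linked arginase and polyamines to axon growth on inhibitory substrates.

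The tables held 41076255 to 41990355 counts per library in injured IP, 33508842 to 36338423 in naive IP, 29477848 to 31417170 in injured input and 29436945 to 33015740 in naive input. Levels are counts-per-million values (CPM), scaled with trimmed mean of M values factors. All 10 sensory neuron markers were detected in each group, with summed levels of 16500 to 17400 CPM in injured IP, 16200 to 16600 in naive IP, 12500 to 14700 in injured input and 13600 to 14000 in naive input. After crush 1 of these 10 markers was called higher and 3 lower in IP, and 1 higher and 4 lower in input (edgeR adjusted p under 0.05). Of all genes tested, 11.5% were called higher and 7.12% lower in IP, and 7.79% higher and 8.26% lower in input. All 7 myelinating Schwann cell markers were detected too, at 806 to 1120 CPM in injured IP, 719 to 1020 in naive IP, 3730 to 4860 in injured input and 3800 to 5050 in naive input. The 7 satellite glia markers summed to 813 to 1200 CPM in injured IP, 479 to 871 in naive IP, 3840 to 4320 in injured input and 3640 to 3860 in naive input. The input libraries numbered 3 stood apart from the others of their groups. The chi-square of their counts against the other libraries of the group was 45.6 and 54.2 per degree of freedom in injured input and 21.9 and 39 in naive input, while the other pair had 10.3 in injured and 8.63 in naive input. Among naive IP libraries, number 2 differed most from the others, at 16.3 and 10.4, against 4.66 for the other pair.

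After crush, the RNA of both arginases, of ornithine decarboxylase and of antizyme inhibitor 1 was higher in the IP. In input both arginases and ornithine decarboxylase were higher. In the main fit, with all 12 libraries and no replicate block, the enzymes after putrescine and the antizymes did not pass in either fraction. With the 6 IP libraries fitted alone, Srm and Oaz2 passed in IP, both higher. Some fits with libraries left out gave further calls, which are given with each gene. With the block within fraction, Srm and Oaz2 also passed in IP, both higher, and Srm, Azin1 and Oaz1 in input, with Oaz1 lower. By the quasi-likelihood test of edgeR at an adjusted p of 0.05, 4 of the 9 members tested were called in IP and 3 of 9 in input, and every member called was higher in injured ganglia. In bulk RNA such as this, fewer cells of a type and less RNA per cell cannot be told apart. Of all genes tested, 18.7% were called in IP (11.5% higher and 7.12% lower) and 16% in input (7.79% higher and 8.26% lower). Because Arg1 entered the test through its injured libraries, these counts describe the members and are not evidence of their own. With the replicate number as a block within each fraction, 6 members were called in IP and 6 in input (5 higher and 1 lower), beside 6586 of all genes in IP, against 2939 without the block, and 6237 in input, against 2526. The plot of levels by library shows every member.

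**Figure D1:**
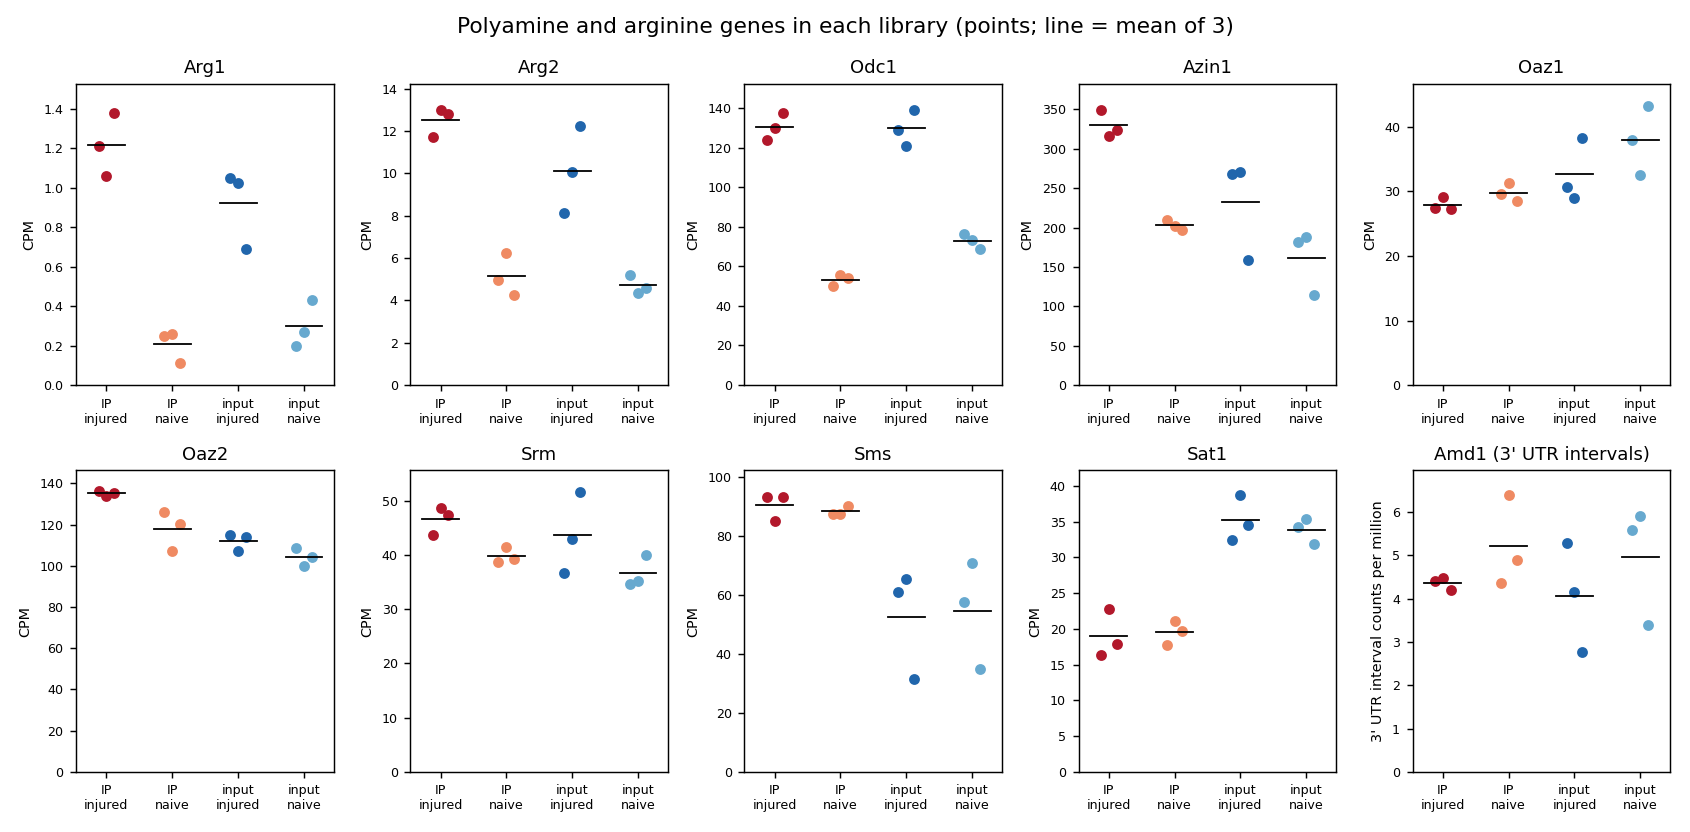
Level of each member in each library in CPM (for Amd1, CPM of its 3′ UTR intervals), with points for libraries and a line for the mean of 3. The injured libraries of Arg1, Arg2 and Odc1 lie above all naive libraries of the same fraction, and the lowest input points of Azin1 and Sms belong to the libraries numbered 3.

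Arg1, the cytosolic arginase known from the urea cycle of liver and from alternatively activated macrophages, lies on the minus strand at chr10:24915207-24927470 of GRCm38. It was the scarcest member that could be tested. Its counts were 47, 42 and 55 in injured IP, against 8, 9 and 4 in naive IP. In input they were 35, 34 and 21 in injured ganglia, against 6, 9 and 14 in naive ganglia. The injured libraries were above the naive ones in both fractions, with no overlap. In CPM, Arg1 averaged 1.22 ± 0.158 in injured IP and 0.208 ± 0.0816 in naive IP (SD, n = 3 each), a log2 change of 2.54 (SE 0.358, edgeR adjusted p = 0.000268). The low-count filter asked for 0.301 CPM, which 3 of 3 injured and 0 of 3 naive libraries reached in IP and 3 of 3 injured and 1 of 3 naive libraries in input, so Arg1 was tested only because its injured libraries were high. In input it averaged 0.921 ± 0.200 CPM in injured and 0.298 ± 0.119 CPM in naive ganglia, a log2 change of 1.61 (SE 0.353, edgeR adjusted p = 0.00738). Without the filter the values were 2.49 in IP (edgeR adjusted p = 0.000278) and 1.65 in input (edgeR adjusted p = 0.00768).

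Some markers of macrophages were also called higher after crush. All 10 macrophage markers were detected in each group, with summed levels of 29.1 to 82.1 CPM in injured IP, 14.5 to 29.2 in naive IP, 309 to 381 in injured input and 133 to 159 in naive input. Of these 10 markers, 4 rose in IP and 6 in input, where 11.5% and 7.79% of all genes were called higher, and none fell in either. Their part in the rise of Arg1 was not tested. Each of the 10 was lower in IP than in input in injured ganglia, with a median log2 difference of -2.62, while Arg1 differed between the same libraries by 0.40 (SE 0.292, edgeR adjusted p = 0.287). Of 7 neutrophil and lymphocyte markers, 6 were in the table, with summed levels of 4.83 to 25.8 CPM in injured IP, 6.42 to 18 in naive IP, 78.1 to 159 in injured input and 101 to 145 in naive input, and 1 was at 0 in naive IP.

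Arg2, the mitochondrial arginase found in many tissues, lies on the plus strand at chr12:79130788-79156301. It stood at 11.7, 12.99 and 12.8 CPM in injured IP, against 4.95, 6.21 and 4.26 CPM in naive IP. In input it stood at 8.10, 10.1 and 12.2 CPM in injured ganglia, against 5.185, 4.355 and 4.60 CPM in naive ganglia. The groups did not overlap in either fraction. Arg2 changed by 1.28 log2 in IP (SE 0.165, edgeR adjusted p = 0.000128) and 1.10 in input (SE 0.168, edgeR adjusted p = 0.000641). The end of Arg2 overlaps Vti1b, a vesicle fusion gene on the opposite strand, and no source used here gives the strand setting of the counting. Vti1b itself did not pass, at -0.03 log2 in IP (edgeR adjusted p = 0.8) and less than 0.01 in size in input (edgeR adjusted p = 0.998). The only interval counted in the 3′ UTR of Arg2 held 4 to 14 counts per library and gave -0.21 in IP (SE 0.545, edgeR adjusted p = 0.915) and -0.63 in input (SE 0.542, edgeR adjusted p = 0.605), against the direction of the gene counts.

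Odc1, ornithine decarboxylase, the regulated enzyme at the entry to the polyamines, lies on the plus strand at chr12:17544808-17551502. Its level was 124, 129.8 and 137 CPM in injured IP, against 50.2, 55.6 and 54.1 CPM in naive IP. In input it was 129, 121 and 139 CPM in injured ganglia, against 76.1, 73.2 and 68.7 CPM in naive ganglia. The spread within each group was small beside the gap between injured and naive. The log2 change was 1.29 in IP (SE 0.0773, edgeR adjusted p = 1.93e-07) and 0.84 in input (SE 0.0766, edgeR adjusted p = 1.16e-05). Counts of the Odc1 3′ UTR intervals alone gave 1.58 in IP (edgeR adjusted p = 5.93e-05) and 0.89 in input (edgeR adjusted p = 0.0131).

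The promoter of Odc1 is shown because, of the 4 members that rose in IP, only this promoter was matched in the RefSeq promoter table of GRCm38.p6, which matched 6 of the 10 members. The table's window of 300 bases runs on the plus strand from 250 bases before to 50 after a start site that lies inside the annotated span of the gene. Its first 185 bases, chr12:17544623-17544807, all before that span, are printed 5′ to 3′ with GGGCGG and its reverse complement, the GC box known to bind Sp1, in capitals.
Odc1 promoter: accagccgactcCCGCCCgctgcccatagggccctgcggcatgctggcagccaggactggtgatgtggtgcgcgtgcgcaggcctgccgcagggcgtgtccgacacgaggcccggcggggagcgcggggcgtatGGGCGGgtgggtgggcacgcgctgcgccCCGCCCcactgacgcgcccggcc
The whole window held 4 matches to GGGCGG on both strands together, 3 of them in the printed bases. Of 32851 mouse promoter windows of this length, 35.7% held at least 1. The window held no match to CACGTG, the E-box of Myc and Max, which stood in 7.15% of windows, none to TGANTCA, the AP-1 motif of Jun, in 7.81%, and none to TGACGTCA, the cyclic AMP response element, in 1.79%. None of these 4 motifs contains another. The rest of the gene and the bases further upstream were not searched, so these absences hold for the window alone.

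Among the regulators of ornithine decarboxylase, Azin1 rose in IP and the antizymes did not pass the test. Azin1, antizyme inhibitor 1, lies on the minus strand at chr15:38487430-38519294 and had the most counts of all members. It stood at 349, 316 and 324.5 CPM in injured IP, against 209.9, 201.5 and 197 CPM in naive IP, with no overlap. The log2 change in IP was 0.70 (SE 0.201, edgeR adjusted p = 0.0285), and it lost the call without any 1 of the 6 IP libraries, where the log2 change was 0.66 to 0.73 and the edgeR adjusted p 0.0615 to 0.0904. It was also lost without the filter on low counts (0.66, edgeR adjusted p = 0.0742) and with the 3′ UTR intervals (0.45, edgeR adjusted p = 0.655). Leaving out both naive libraries numbered 2 ended it too (0.70, edgeR adjusted p = 0.0753). The IP call was kept under 14 of 23 alternatives, among them the 6 IP libraries fitted alone and the replicate block within fraction. The SE rests on a spread shared by all 12 libraries, those of input included. In input Azin1 stood at 268.5, 271 and 159 CPM in injured ganglia, against 181, 187 and 114 CPM in naive ganglia. The groups overlapped there through the injured library numbered 3, and the naive library of that number was the lowest of its group. The log2 change in input was 0.53 (SE 0.201, edgeR adjusted p = 0.0986). It was 0.74 without the injured input library numbered 3 (edgeR adjusted p = 0.00823), 0.65 without both input libraries numbered 3 (edgeR adjusted p = 1.43e-05), and 0.52 with the replicate block within fraction (edgeR adjusted p = 2.59e-11).

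Oaz1, the most studied antizyme, lies on the plus strand at chr10:80826656-80829290. It stood at 27.4, 29.2 and 27.3 CPM in injured IP, against 29.55, 31.35 and 28.55 CPM in naive IP. In input it stood at 30.6, 29.04 and 38.4 CPM in injured ganglia, against 37.9, 32.6 and 43.3 CPM in naive ganglia. The groups overlapped in both fractions. Oaz1 did not pass, at -0.09 log2 in IP (SE 0.118, edgeR adjusted p = 0.653) and -0.22 in input (SE 0.117, 95% interval -0.47 to 0.038, edgeR adjusted p = 0.262). In input the value was -0.35 without the injured library numbered 3 (edgeR adjusted p = 0.0393), -0.03 without the naive library numbered 3 (edgeR adjusted p = 0.883) and -0.22 with the replicate block within fraction (edgeR adjusted p = 0.00473). Leaving out naive input 2 gave -0.31 (edgeR adjusted p = 0.118), and leaving out injured input 2 gave -0.14 (edgeR adjusted p = 0.532).

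Oaz2, a second antizyme with a like action, lies on the plus strand at chr9:65676548-65690300. It stood at 136, 134 and 135 CPM in injured IP, against 126, 107 and 120.2 CPM in naive IP, with no overlap. In input it stood at 115, 107 and 114 CPM in injured ganglia, against 109, 99.7 and 104 CPM in naive ganglia, and the groups overlapped. The log2 change was 0.20 in IP (SE 0.0708, edgeR adjusted p = 0.0714) and 0.10 in input (SE 0.071, edgeR adjusted p = 0.383). In IP it passed without the injured input library numbered 3, at 0.20 (edgeR adjusted p = 0.0483), which enters only through the shared spread, and with the replicate block within fraction, also at 0.20 (edgeR adjusted p = 0.000651). With the 6 IP libraries fitted alone it passed at 0.19 (edgeR adjusted p = 0.0427).

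**Figure D2:**
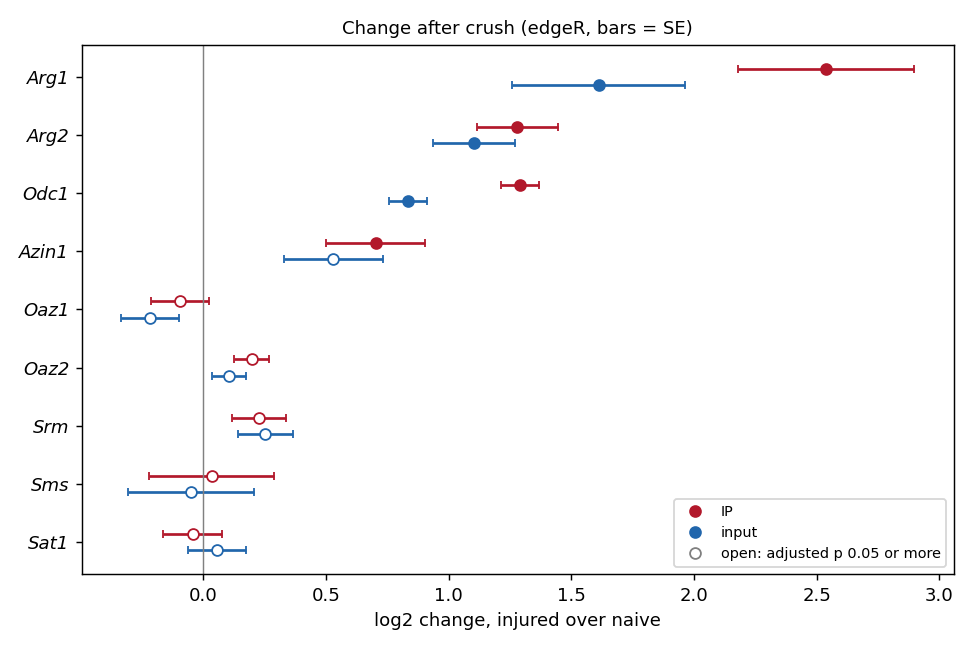
The log2 change of 9 members, injured over naive, from edgeR with bars for the SE, in IP (red) and input (blue), with open points for an adjusted p of 0.05 or more. Arg1, Arg2, Odc1 and Azin1 are filled in IP at 0.70 to 2.54, Arg1, Arg2 and Odc1 are filled in input at 0.84 to 1.61, and the other members lie between -0.22 and 0.25 except for Azin1 in input at 0.53.

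Amd1, S-adenosylmethionine decarboxylase, which makes the aminopropyl donor, lies on the minus strand at chr10:40287458-40302188. The gene table listed 0 to 5 counts per library, and the table gave 0 in all 12 libraries for Amd2, a near-identical copy at chr10:35708691-35711891. Of all words of 50 bases in the Amd1 transcript, 86.1% also stood in that of Amd2. The interval table, however, held 84 to 221 counts per library in 3 intervals inside the Amd1 3′ UTR. They are printed 5′ to 3′ because all 25 bases of each also stood in Amd2, so many reads there match both copies. Of the words of 50 bases that overlap each interval, 86.7% were shared with other genes at the first and 100% at the other two. They lie on the minus strand at chr10:40287477-40287502, chr10:40288776-40288801 and chr10:40289326-40289351, with the bases read from the position after each deposited start.
Amd1 interval 40287477: atgtaagcttcaataaaagtttgct
Amd1 interval 40288776: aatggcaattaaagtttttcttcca
Amd1 interval 40289326: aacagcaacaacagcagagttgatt
Summed over these, the level was 4.41, 4.47 and 4.21 CPM of the interval counts in injured IP, against 4.36, 6.39 and 4.89 in naive IP. In input it was 5.28, 4.15 and 2.76 in injured ganglia, against 5.58, 5.90 and 3.40 in naive ganglia. The groups overlapped in both fractions. The interval counts did not pass, at -0.26 log2 in IP (SE 0.224, 95% interval -0.728 to 0.215, edgeR adjusted p = 0.684) and -0.28 in input (SE 0.229, 95% interval -0.765 to 0.197, edgeR adjusted p = 0.58). With 1 library left out the values were -0.37 to -0.08 in IP, lowest in size without naive IP 2, and -0.52 (without injured input 1) to -0.07 (without injured input 3) in input. Of 9783 genes tested by such intervals, 4.21% were called in IP and 4.77% in input.

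Srm, spermidine synthase, lies on the plus strand at chr4:148591513-148594619. It stood at 43.8, 48.6 and 47.4 CPM in injured IP, against 38.7, 41.4 and 39.3 CPM in naive IP, with no overlap. In input it stood at 36.6, 43.0 and 51.6 CPM in injured ganglia, against 34.7, 35.3 and 40.03 CPM in naive ganglia, and the groups overlapped. Srm did not pass, at 0.23 log2 in IP (SE 0.11, edgeR adjusted p = 0.181) and 0.25 in input (SE 0.111, edgeR adjusted p = 0.151). With the replicate block within fraction both passed, at 0.23 in IP (edgeR adjusted p = 0.00229) and 0.25 in input (edgeR adjusted p = 0.00153). The input value was 0.40 without the naive input library numbered 3 (edgeR adjusted p = 0.0298), 0.37 without the injured input library numbered 1 (edgeR adjusted p = 0.0334) and 0.29 without both input libraries numbered 3 (edgeR adjusted p = 0.0274), but 0.12 without the injured input library numbered 3 (edgeR adjusted p = 0.447). The IP value passed at 0.20 without both input libraries numbered 3 (edgeR adjusted p = 0.0355). With the 6 IP libraries fitted alone it passed at 0.22 (edgeR adjusted p = 0.0112).

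Sms, spermine synthase, lies on the minus strand of the X chromosome at chrX:157443851-157492287. It stood at 93.5, 85.3 and 93.3 CPM in injured IP, against 87.8, 87.6 and 90.3 CPM in naive IP. In input it stood at 61.0, 65.5 and 31.6 CPM in injured ganglia, against 57.8, 70.9 and 35.03 CPM in naive ganglia. Injured and naive overlapped in both fractions, and the input libraries numbered 3 were the lowest of their groups. The log2 change was 0.03 in IP (SE 0.254, 95% interval -0.518 to 0.587, edgeR adjusted p = 0.949) and -0.05 in input (SE 0.257, 95% interval -0.608 to 0.51, edgeR adjusted p = 0.935). Both intervals rest on a spread shared by all groups, so that of IP also takes in the input libraries numbered 3.

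Sat1, the spermidine and spermine acetyltransferase that starts their breakdown, lies on the minus strand at chrX:155213126-155216449. It stood at 16.3, 22.7 and 17.9 CPM in injured IP, against 17.8, 21.1 and 19.8 CPM in naive IP. In input it stood at 32.5, 38.7 and 34.5 CPM in injured ganglia, against 34.3, 35.3 and 31.9 CPM in naive ganglia. Injured and naive libraries overlapped in both fractions. The log2 change was -0.04 in IP (SE 0.121, 95% interval -0.304 to 0.219, edgeR adjusted p = 0.858) and 0.06 in input (SE 0.119, 95% interval -0.2 to 0.314, edgeR adjusted p = 0.817).

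Levels of different members were compared per length, as CPM per kilobase of the longest coding transcript. This treats counts as spread over the whole transcript and does not correct for sequence shared with other genes. In injured IP the order was Oaz2 at 73.4, Azin1 at 67.8, Odc1 at 59.1, Srm at 34.8, Oaz1 at 26.1, Sms at 24.4, Sat1 at 16.4, Arg2 at 8.75 and Arg1 at 0.824 CPM per kilobase. The ranges of neighbours over the 3 libraries did not overlap in this order. In naive IP it was Oaz2 at 64.0, Azin1 at 41.7, Srm at 29.8, Oaz1 at 27.8, Odc1 at 24.1, Sms at 23.8, Sat1 at 16.8, Arg2 at 3.60 and Arg1 at 0.141 CPM per kilobase. Srm and Oaz1 overlapped there, as did Odc1 and Sms. By these values Odc1 stood above Srm, Oaz1 and Sms per length in injured IP and below Srm and Oaz1 in naive IP. The places of Odc1 and Oaz1 are uncertain, since 42.2% and 52.2% of their words of 50 bases stood in other genes. In naive IP 1, a single 3′ UTR interval of Oaz1 held 816 counts, against 949 for the gene. In injured input it was Oaz2 at 60.8, Odc1 at 58.7, Azin1 at 47.8, Srm at 32.7, Oaz1 at 30.5, Sat1 at 30.3, Sms at 14.2, Arg2 at 7.09 and Arg1 at 0.623 CPM per kilobase, and neighbours overlapped except between Sat1 and Sms and between Arg2 and Arg1. In naive input it was Oaz2 at 56.5, Oaz1 at 35.4, Azin1 at 33.1, Odc1 at 32.9, Sat1 at 29.1, Srm at 27.4, Sms at 14.7, Arg2 at 3.30 and Arg1 at 0.202 CPM per kilobase. Oaz1, Azin1 and Odc1 overlapped as neighbours there, as did Sat1 and Srm. Sat1 thus stood among the middle levels in input and below Sms in IP.

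Several members share sequence with other annotated genes, so their levels are uncertain: the counting may have dropped reads that match several copies, or divided them. Of the words of 50 bases in each transcript, 52.2% of Oaz1 stood also in its pseudogene Oaz1-ps, which was listed at 0 in all 12 libraries. In Odc1 42.2% stood in other genes, 16 in all, and the pseudogene Gm7993 alone held 20.3%. In Sms 28.7% stood in Sms-ps, and in Arg2 21.2% stood elsewhere, with 17.1% of all Arg2 words on the opposite strand of Vti1b. Oaz2 shared 12%, Sat1 7.28%, Azin1 6.43% and Srm 2.4%, while Arg1 shared none. The Oaz1 gene counts were 949 to 1412 per library, while its 2 intervals summed to 1420 to 2033. Each interval alone held fewer counts than the gene in every library, as with 604 and 816 against 949 in naive IP 1. Whether the same reads were counted in both intervals was not tested.

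**Figure D3:**
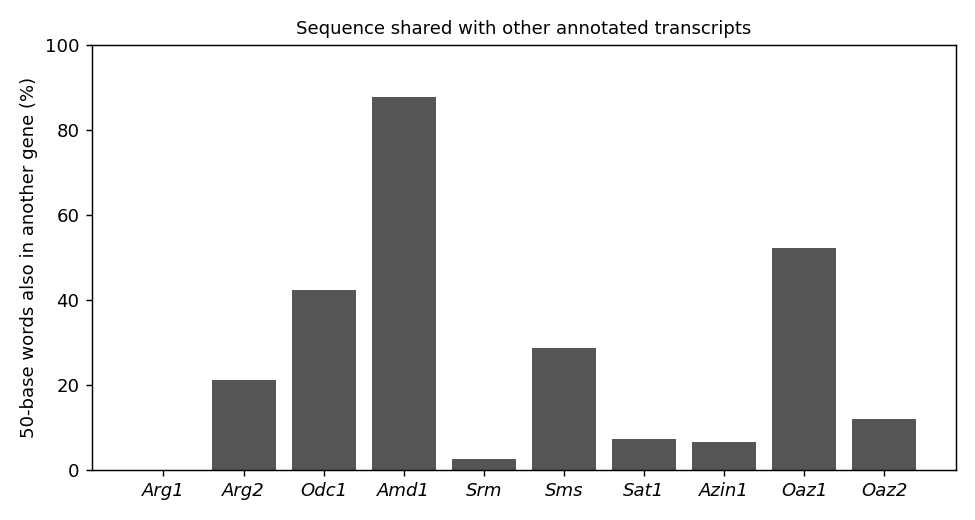
Share of all words of 50 bases in the longest coding transcript of each member that also stands in a transcript of another gene, on either strand, in percent. Amd1 is highest at 87.6%, Oaz1 follows at 52.2%, and Arg1 is at 0.

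Set against input, the IP held less Sat1 in both states, less Odc1 in naive ganglia and more Sms in both states. In injured ganglia, 3 of 9 members were called, 2 higher and 1 lower in IP, where 45.9% of all genes were called (21.4% higher and 24.6% lower). In naive ganglia, 4 of 9 were called, 1 higher and 3 lower, where 41.1% of all genes were called (15.1% higher and 26% lower). Against these shares of all genes, the members' counts do not stand out. The split of calls depends on the scaling, since 46.51% of calls in injured and 36.81% in naive ganglia were higher in IP, against 23.94% and 22.34% with library size alone. That scaling moved the median of all genes to -0.105 in injured and -0.106 in naive ganglia, against 0.0427 and -0.0137.

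Sat1 averaged 19.0 ± 3.33 CPM in injured IP and 35.2 ± 3.17 CPM in injured input (SD, n = 3 each), a log2 difference of -0.89 (SE 0.12, edgeR adjusted p = 7.07e-05). It averaged 19.6 ± 1.66 CPM in naive IP and 33.9 ± 1.74 CPM in naive input, a log2 difference of -0.79 (SE 0.121, edgeR adjusted p = 0.00019). The IP and input libraries did not overlap in either state. These differences are smaller than those of the marker lists of other cells, whose medians in injured ganglia were -3.10 for myelinating Schwann cells, -2.38 for satellite glia, -2.62 for macrophages, -3.11 for neutrophils and lymphocytes, -1.79 for endothelium and pericytes and -2.93 for fibroblasts and perineurium, and the part of such cells in the Sat1 difference was not tested.

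Odc1 averaged 53.3 ± 2.79 CPM in naive IP and 72.6 ± 3.72 CPM in naive input, a log2 difference of -0.45 (SE 0.0768, edgeR adjusted p = 0.000476). In injured ganglia the fractions overlapped, at 130.4 ± 6.72 CPM in IP and 129.6 ± 9.14 CPM in input (log2 difference 0.01, SE 0.0757, 95% interval -0.155 to 0.172, edgeR adjusted p = 0.938). The difference between the injury changes, IP minus input, was 0.45 log2 (SE 0.108) and did not pass over all genes (edgeR adjusted p = 0.344). With the replicate block within fraction it was 0.46 and passed (edgeR adjusted p = 0.000253). No other member passed this test, with or without that block. Without the block 0 of 9 members were called by edgeR, by DESeq2 and by limma-voom, 1 of 9 had an unadjusted p under 0.05 in edgeR, and 0.0635% of all genes, 10 in number, were called. Over all 15748 genes tested, 489 had an unadjusted p under 0.05 in edgeR. For Arg1 the difference was 0.93 (SE 0.522, 95% interval -0.205 to 2.06), for Arg2 0.18 (SE 0.234) and for Azin1 0.17 (SE 0.283), each with an edgeR adjusted p of 1.

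Sms was higher in IP by 0.78 log2 in injured (SE 0.256, edgeR adjusted p = 0.0254) and by 0.70 in naive ganglia (SE 0.256, edgeR adjusted p = 0.0458), and the fractions did not overlap. The call in injured ganglia was lost without injured IP 1 (0.76, edgeR adjusted p = 0.0592), without injured IP 3 (0.76, 0.0618) and without injured input 3 (0.52, 0.069). Library size alone as scaling (0.63, edgeR adjusted p = 0.0715), no filter (0.75, 0.0638) and the 3′ UTR intervals (0.86, 0.0707) ended it too. In naive ganglia it was lost without any 1 of 9 libraries, with an edgeR adjusted p of up to 0.1, and under the same 3 settings (0.0661 to 0.101). Oaz2 was higher in injured IP by 0.27 (SE 0.0709, edgeR adjusted p = 0.00732), a call lost with library size alone as scaling (0.12, edgeR adjusted p = 0.171) and with the 3′ UTR intervals (0.30, edgeR adjusted p = 0.0544). In naive ganglia it differed by 0.18 (SE 0.071, edgeR adjusted p = 0.0616), which passed without naive IP 2 (0.24, edgeR adjusted p = 0.0171), without naive input 3 (0.26, 0.0283) or without injured input 3 (0.18, 0.0424).

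Oaz1 was lower in naive IP by 0.35 on the log2 scale (log2 difference -0.35, SE 0.117, edgeR adjusted p = 0.0307). The call was lost without naive input 3 (-0.16, edgeR adjusted p = 0.265), without naive IP 1 (-0.34, 0.0831), without naive IP 3 (-0.31, 0.103) or without naive input 1 (-0.35, 0.0717). Without both input libraries numbered 3 it was -0.16 (edgeR adjusted p = 0.0969), and other scaling factors (0.0565), no filter (0.0518) and the 3′ UTR intervals (0.052) ended the call as well. In injured ganglia Oaz1 differed by -0.22 (SE 0.117, edgeR adjusted p = 0.137). Azin1 differed by 0.51 in injured ganglia (SE 0.2, edgeR adjusted p = 0.0566) and by 0.33 in naive ganglia (SE 0.201, edgeR adjusted p = 0.21). The injured value passed without injured input 1 (0.62, edgeR adjusted p = 0.0472), injured input 2 (0.63, 0.0435), naive input 2 (0.51, 0.049) or naive input 3 (0.47, 0.0383), and it was 0.29 without injured input 3 (edgeR adjusted p = 0.164). It also passed with DESeq2 (adjusted p = 0.0285) and limma-voom (adjusted p = 0.0412). Blocks over all 12 libraries (edgeR adjusted p = 0.00918) or within state (0.0265) gave the call too. The labels do not say whether the numbers pair IP with input. Without both input libraries numbered 3 the injured value was 0.24 (edgeR adjusted p = 0.00414) and the naive value 0.22 (edgeR adjusted p = 0.0083).

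The arginases and Srm were not called between the fractions. Arg2 differed by 0.30 in injured (SE 0.159, edgeR adjusted p = 0.136) and 0.13 in naive ganglia (SE 0.172, edgeR adjusted p = 0.591), and the injured value passed without injured input 3 (0.46, edgeR adjusted p = 0.0281) and without both input libraries numbered 3 (0.41, 0.0357). Arg1 differed by -0.53 in naive ganglia (SE 0.432, 95% interval -1.46 to 0.407, edgeR adjusted p = 0.358), and by -0.10 without naive input 3 and -0.23 without naive IP 3 (edgeR adjusted p 0.894 and 0.729). Srm differed by 0.09 in injured (SE 0.11, edgeR adjusted p = 0.517) and 0.12 in naive ganglia (SE 0.111, edgeR adjusted p = 0.424), which was 0.26 without both input libraries numbered 3 (edgeR adjusted p = 0.01). For Amd1, the 3′ UTR intervals differed by 0.10 in injured (SE 0.228, edgeR adjusted p = 0.83) and 0.07 in naive ganglia (SE 0.225, edgeR adjusted p = 0.879), where 15.3% and 15.5% of genes tested by intervals were called.

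**Figure D4:**
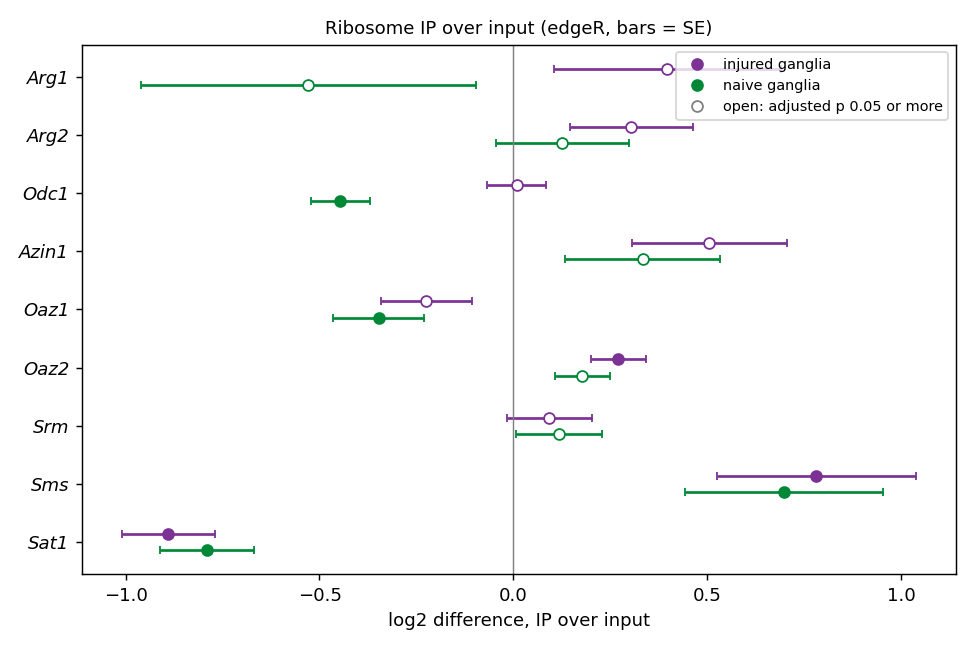
The log2 difference of 9 members, IP over input, from edgeR with bars for the SE, in injured (purple) and naive ganglia (green), with open points for an adjusted p of 0.05 or more. Sat1 is lowest at -0.89 and -0.79, Sms is highest at 0.78 and 0.70, and Odc1 is at 0.01 in injured and -0.45 in naive ganglia.

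The wider pathway was read from 50 genes in 9 lists, of which 47 were tested. After crush 14 rose and 0 fell in IP, with a median log2 change of 0.10 against 0.021 over all genes, and 9 rose and 3 fell in input, with a median of 0.12 against -0.02. Over all genes tested, 11.5% were called higher and 7.12% lower in IP, and 7.79% higher and 8.26% lower in input. Of the genes named below, Mat2b, Nos1 and Enoph1 were also called lower in IP with the replicate block within fraction. The genes not named were not read with that block. Among 7 genes of arginine supply, 3 rose in IP and 1 in input. Slc7a6, a light chain of exchangers for basic amino acids, averaged 48.9 ± 0.644 CPM in injured IP and 32.7 ± 2.16 CPM in naive IP (SD, n = 3 each), a log2 change of 0.58 (edgeR adjusted p = 9.83e-05), and changed by 0.38 in input (edgeR adjusted p = 0.00308). Slc7a1, the main cationic amino acid transporter of most cells, rose by 0.35 in IP (edgeR adjusted p = 0.00868) and stood at 0.23 in input without passing (edgeR adjusted p = 0.0714; 0.000128 with the replicate block within fraction). It passed in input without naive input 3, at 0.35 (edgeR adjusted p = 0.0155), and without injured input 1, at 0.31 (edgeR adjusted p = 0.0188). Slc7a3, a neuronal cationic amino acid transporter, changed by 0.60 in IP (edgeR adjusted p = 0.0396), which was lost without any 1 of the 6 IP libraries or naive input 1 (edgeR adjusted p 0.0513 to 0.162), and its input value was 0.50 (edgeR adjusted p = 0.0851; 0.00867 with the replicate block within fraction).

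Of 5 tested genes for other uses of arginine, 1 rose in IP and 1 fell in input, and Nos2 and Agmat were not tested. Over all genes tested, 11.5% were called higher in IP and 8.26% lower in input. Ddah1, which breaks down methylated arginines, averaged 70.8 ± 4.05 CPM in injured IP and 53.4 ± 3.42 CPM in naive IP, a log2 change of 0.41 (edgeR adjusted p = 0.00158), against 0.20 in input (edgeR adjusted p = 0.0868; 0.00477 with the replicate block within fraction; 0.0294 without naive input 3). Nos1, the neuronal nitric oxide synthase, stood at 11.8 ± 1.495 CPM in injured input and 16.1 ± 1.22 CPM in naive input, a log2 change of -0.45 (edgeR adjusted p = 0.0275) that lost the call without injured input 1 or any naive input library (edgeR adjusted p 0.0527 to 0.15). Its IP value was -0.26 (edgeR adjusted p = 0.186; 0.0124 with the replicate block within fraction). None of 5 genes listed under other fates of ornithine, which took in genes of proline synthesis, was called by edgeR in IP or input. In IP 2 of them and in input 0 had an unadjusted p under 0.05. Over all 15748 genes tested, 4875 in IP and 4423 in input had such a p. Aldh18a1, which makes the precursor of proline from glutamate, had a log2 value of 0.31 in IP (edgeR adjusted p = 0.0586; 0.000146 with the replicate block within fraction). It passed without naive IP 2, at 0.40 (edgeR adjusted p = 0.0324), and without injured input 2 or 3, at 0.31 (edgeR adjusted p 0.0365 and 0.0145).

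None of 8 genes of the methionine and methylthioadenosine cycle was called by edgeR in IP, where 2 had an unadjusted p under 0.05, and 2 fell in input. Of all 15748 genes tested, 4875 had such a p in IP, and 8.26% were called lower in input. Enoph1, an enzyme of methionine salvage, stood at 26.5 ± 0.710 CPM in injured input and 32.3 ± 0.933 CPM in naive input, a log2 change of -0.28 (edgeR adjusted p = 0.0196). Its call was lost without injured input 1 or 2 or without naive input 1 or 3 (edgeR adjusted p 0.0525 to 0.104). Its IP value was -0.16 (edgeR adjusted p = 0.169; 0.0499 with the replicate block within fraction). Mat2b, the regulatory subunit of methionine adenosyltransferase, stood at 58.8 ± 6.92 CPM in injured input and 74.4 ± 8.77 CPM in naive input, a log2 change of -0.34 (edgeR adjusted p = 0.0339). That call was lost without any 1 of 6 libraries, with an edgeR adjusted p of up to 0.151. Its IP value was -0.27 (edgeR adjusted p = 0.0768; 3.89e-05 with the replicate block within fraction), and passed without injured input 3 (edgeR adjusted p = 0.032) or naive input 3 (0.0372).

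Smox, spermine oxidase, was the only 1 of 3 tested genes of polyamine oxidation and further acetylation to be called. It was called in IP, where 11.5% of all genes were called higher. It averaged 22.5 ± 1.74 CPM in injured IP and 16.1 ± 1.84 CPM in naive IP, a log2 change of 0.48 (edgeR adjusted p = 0.0075). Its input value was 0.26 (edgeR adjusted p = 0.118; 0.000674 with the replicate block within fraction; 0.0266 without naive input 3). Azin2, a second antizyme inhibitor known from brain and testis, averaged 196 ± 8.10 CPM in injured IP and 139.9 ± 2.49 CPM in naive IP, a log2 change of 0.49 (edgeR adjusted p = 0.00249), and changed by 0.57 in input (edgeR adjusted p = 0.00116). Oaz3, the testis antizyme, was not tested.

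Of 7 genes of polyamine transport, 2 rose in IP and 1 in input. Over all genes tested, 11.5% were called higher in IP and 7.79% in input. Atp13a4, a P5B ATPase, was low, at 0.991 ± 0.253 CPM in injured IP and 0.383 ± 0.0469 CPM in naive IP, with a log2 change of 1.36 (SE 0.327, edgeR adjusted p = 0.0106). Its input value was 0.45 (edgeR adjusted p = 0.428). Slc3a2, the heavy chain of several amino acid exchangers, rose by 0.47 in IP (edgeR adjusted p = 0.00242) and by 0.29 in input (edgeR adjusted p = 0.0408), where the call was lost without any 1 of 8 libraries (edgeR adjusted p 0.054 to 0.13), among them injured input 3 (0.18, 0.1). In the hypusine pathway, where spermidine is used to modify the translation factor Eif5a, 2 of 4 genes rose in each fraction. Eif5a rose by 0.32 in IP (edgeR adjusted p = 0.0218) and by 0.30 in input (edgeR adjusted p = 0.0346). Its call was lost without any 1 of 4 libraries in IP (0.0643 to 0.0888) and of 5 in input (0.051 to 0.129), and its input change was 0.19 without injured input 3. Dhps, which performs the spermidine step, changed by 0.33 in IP (edgeR adjusted p = 0.0202) and 0.30 in input (edgeR adjusted p = 0.0391). The IP call was lost without injured IP 2 (0.0899), naive IP 1 (0.0957) or naive IP 3 (0.056), and the input call without any 1 of 9 libraries (0.0501 to 0.157).

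Of 7 transcription factors written of as regulators of Odc1 or Arg1, 4 rose in each fraction, where 11.5% of all genes in IP and 7.79% in input were called higher. Atf3, an injury-induced factor, averaged 597 ± 16.6 CPM in injured IP and 19.2 ± 14.7 CPM in naive IP, a log2 change of 4.96 (edgeR adjusted p = 3.13e-05), and changed by 4.87 in input (edgeR adjusted p = 5.7e-05). Without naive IP 2 the IP value was 5.80, and without naive input 2 the input value was 5.56. Jun, the AP-1 subunit, rose by 1.37 in IP (edgeR adjusted p = 1.93e-07) and 1.19 in input (edgeR adjusted p = 1.28e-06). Myc, an activator of Odc1 in many cells, averaged 13.3 ± 0.288 CPM in injured IP and 8.49 ± 0.949 CPM in naive IP, a log2 change of 0.65 (edgeR adjusted p = 0.00245). Its input value was 0.38 (edgeR adjusted p = 0.0566; 0.00198 with the replicate block within fraction), and passed without naive input 2 (0.0233) or injured input 3 (0.0412). Stat3, a factor activated by cytokines, rose by 0.34 in IP (edgeR adjusted p = 0.00588) and by 0.28 in input (edgeR adjusted p = 0.0219), where the call was lost without naive input 1 (0.0802) or naive input 2 (0.0818). Its input call was also lost with the 6 input libraries fitted alone (edgeR adjusted p = 0.0905). Cebpb, a factor of macrophages and stressed cells, rose by 0.65 in input (edgeR adjusted p = 0.00688), and its IP value was 0.38 (edgeR adjusted p = 0.0845; 0.00619 with the replicate block within fraction).

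**Figure D5:**
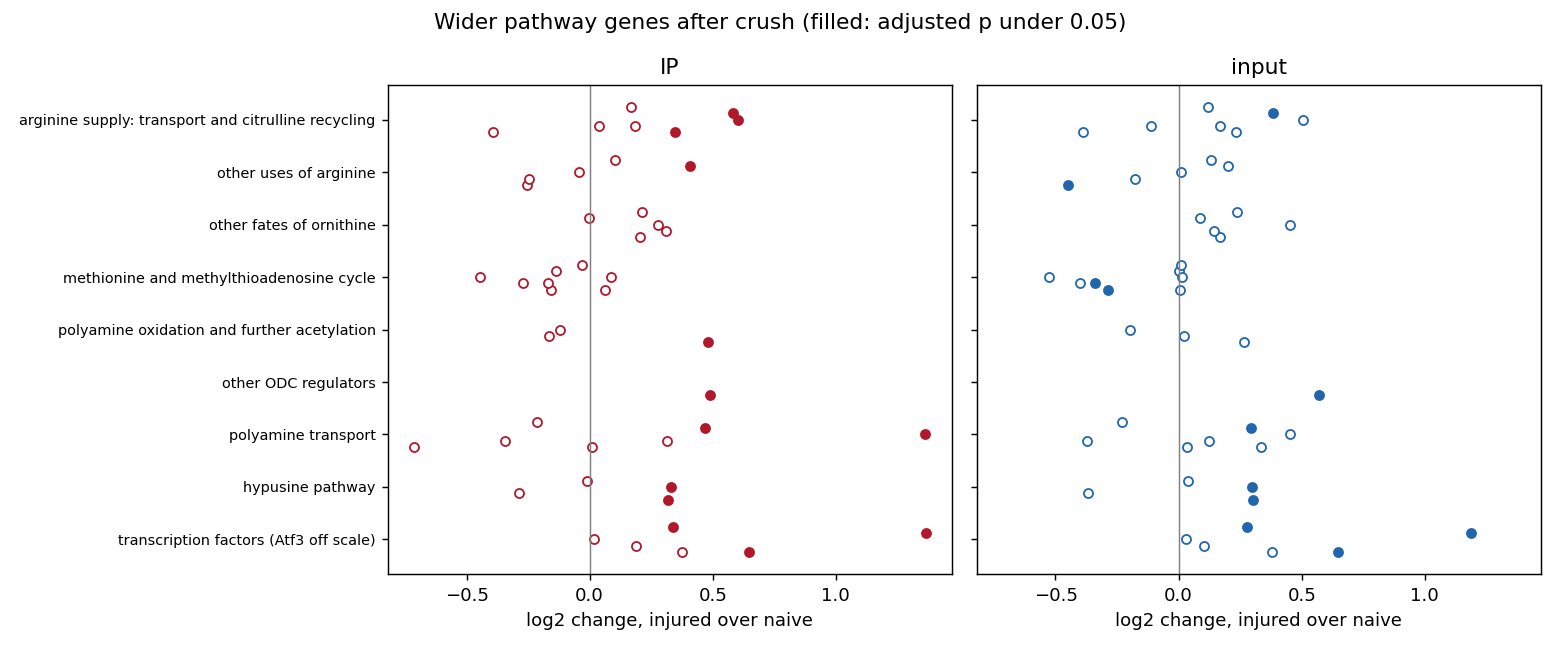
The log2 change, injured over naive, of the wider pathway genes by list, in IP (left) and input (right), with 1 point a gene and filled points for an edgeR adjusted p under 0.05. No filled point lies below 0 in IP, 3 do in input, and Atf3, at 4.96 and 4.87, is left out for scale.

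The tested genes whose log2 CPM was most like that of Arg1 over the 12 libraries, by Pearson correlation, were Gm7361 (0.964), Prc1, a protein of the mitotic spindle (0.963), Dcaf12l2 (0.958), Lmo7 (0.955) and Car3, a carbonic anhydrase (0.955). For Odc1 they were Tmem159 (0.995), Mapkbp1 (0.995), Pvr, the poliovirus receptor homologue (0.990), Stom, a membrane scaffold protein (0.988), and Rhoc, a small GTPase (0.988). The 12 points fall into injured and naive groups and share their libraries, so these values describe a shared pattern over the groups.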

How the data were processed

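RNA of 12 libraries in 4 groups of 3 was analysed. Per the submitters' processing notes, reads were demultiplexed with bcl2fastq 2.17, aligned with STAR to GRCm38 and counted with HTSeq, and the authors deposited whole-number counts per gene and per 3′ UTR interval. Strand setting and treatment of reads with several matches are not given in the sources used here. Of 24060 entries, 27 had names turned into dates and were left out (0.191 to 0.214% of counts). No column belonged to another series (0 columns).

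Genes were filtered with filterByExpr at a minimum count of 10, scaled by trimmed mean of M values factors (0.943 to 0.977 in IP, 1.02 to 1.06 in input) and fitted over all 12 libraries with the quasi-likelihood test of edgeR 4.0.16 in R 4.3.3 (8 residual degrees of freedom), with Benjamini-Hochberg adjustment over 15748 genes. Log2 CPM used a prior count of 2. The 31436 intervals were summed per gene, a measure added after the data were seen. Alternatives were DESeq2 1.42.0, limma-voom 3.58.1, other scalings, no filter, replicate blocks and left-out libraries. The fits were tested on simulated counts with the same spread for all genes and libraries. That simulation held no outlying or paired libraries, so it does not cover those of these data. Replicates differed beyond sampling noise (chi-square 4.66 to 54.2 per degree of freedom), so none were merged. Where nothing ties libraries to animals, p-values measure the spread between libraries, which may be technical.

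Deviations from the group means of same-numbered libraries correlated at 0.447, 0.319 and 0.191 between injured and naive IP and at 0.273, 0.423 and 0.597 between injured and naive input. Each injured library matched the naive library of its own number best, so same-numbered libraries of a fraction go together. Whether a number stands for an animal or for a shared preparation is not stated and was not tested. The main fit has no block because no label says what a number stands for. It ignores any such pairing, so results with the block within fraction are given beside it. The members and lists were chosen with earlier results of these data known. All members are named. From the wider lists were named the genes with an adjusted p under 0.05 and an absolute log2 change of at least 0.5 after crush, for each list without one the gene with the smallest p in IP, and, after their values were seen, the 6 other genes called. The 5 genes most correlated with Arg1 and with Odc1 were named too. Promoter sequences are those of RefSeq for GRCm38.p6.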

Additional observations from a re-analysis of the deposited data

How the results depend on the processing

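The rise of Odc1 in both fractions and the lower level of Sat1 in IP kept their direction and their call under all 22 or 23 alternatives run for each. The rise of Arg2 did so under all but the 3′ UTR intervals. Arg1 kept its call too, but entered the test through its injured libraries, so this is no support of its own. Depth limits Arg1, at 4 to 55 counts per library, and the cause of the changes below was not tested.

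With the interval counts, the log2 change turned to -0.2084 for Arg2 and -0.0181 for Sms in IP and to -0.6281 for Arg2 and -0.1119 for Azin1 in input. The difference of IP from input turned to -0.02116 for Arg2 and -0.01876 for Odc1 in injured ganglia and to -0.4409 for Arg2 and -0.1626 for Srm in naive ganglia. Without the filter, Sms stood at -0.01085 in IP, and Odc1 differed by -0.01498 in injured ganglia. With library size alone, IP differed from input in injured ganglia by -0.1379 for Odc1, -0.05262 for Srm and -0.05105 for Amd1, and in naive ganglia by -0.01659 for Amd1. With the 6 libraries compared alone, Odc1 differed by -0.02552 in injured ganglia, and 4736 genes were called in IP and 1335 in input. That setting ended the input calls of Nos1 (edgeR adjusted p = 0.0842), Stat3 (0.0905), Eif5a (0.103) and Slc3a2 (0.11). It also ended those of Dhps (edgeR adjusted p = 0.118), Enoph1 (0.119) and Mat2b (0.191). In IP the setting added calls of Srm, Oaz2, Cebpb and Aldh18a1, all higher, and of Mat2b, lower. Without both naive libraries numbered 2, Sat1 stood at 0.01557 in IP and Sms at 0.1848 in input, Arg2 differed by -0.08609 in naive ganglia, and 1669 genes were called in input. Without the input libraries numbered 3, Sms stood at 0.07683 in input, Amd1 differed by -0.1619 in injured and -0.06021 in naive ganglia, 4943 genes were called in IP, and 5 members were called in input and 5 between the fractions in injured ganglia. DESeq2 called 44 genes for the difference between injury changes.

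With 1 library left out, the log2 change was -0.1925 to 0.05411 for Sat1 in IP, and -0.2355 to 0.2125 for Sms and -0.01564 to 0.1128 for Sat1 in input. IP over input was -0.03786 to 0.06312 for Odc1, -0.01903 to 0.2289 for Srm and -0.1107 to 0.3344 for Amd1 in injured ganglia, and -0.03114 to 0.2487 for Arg2 and -0.09863 to 0.2203 for Amd1 in naive ganglia. The difference between injury changes was -0.04158 to 0.2944 for Azin1. Calls among members numbered 3 to 5 in IP, 3 to 5 in input, 2 to 4 between the fractions in injured and 2 to 5 in naive ganglia. Calls among all genes numbered 1964 (without naive IP 1) to 3824 (without injured input 3) in IP, 1524 (without naive input 1) to 2653 in input, 6011 to 7374 and 5135 to 7513 between the fractions in injured and naive ganglia, and 0 to 15 for the difference between injury changes.

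The replicate block within fraction called 6586 genes in IP, 6237 in input and 282 for the difference between injury changes, and 6 members in IP, 6 in input and 1 for that difference. Among the members and the wider genes named here, it changed no injury call beyond those given beside their results. The wider genes not named were not read with this block. Between IP and input the same-numbered libraries correlated at 0.23, 0.0472 and 0.129 in injured and at 0.11, 0.0766 and 0.13 in naive ganglia. The best match was the same number except for injured IP 2, which matched injured input 3 best. These values do not settle whether the numbers pair IP with input. The replicate block over all 12 libraries called 18 genes and the block within state 4 for the difference between injury changes, against 10 without a block.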
